A study of Mus musculus with 83 samples.

Results

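Ovarian follicles from wild-type mice of the outbred CD-1 strain were profiled singly 4 h after the ovulatory stimulus, with 7 follicles that had been vitrified set against 7 that had stayed fresh. The 14 libraries were chosen by their labels (the 4 h time point, fresh or vitrified) from 83 libraries of the series, which also holds both kinds of follicle at 0, 1 and 8 h. Fresh and vitrified follicles were treated alike after the cryopreservation step. Both were encapsulated in 0.5% alginate and grown for 8 days in medium with bovine serum albumin, fetuin, insulin-transferrin-selenium and 10 mIU/ml recombinant FSH. Follicles of 300 to 350 µm were then released from the beads. They were placed in maturation medium with 10% fetal bovine serum, 1.5 IU/ml human chorionic gonadotropin (hCG), 10 ng/ml epidermal growth factor (EGF) and 10 mIU/ml recombinant FSH. Each library held the RNA of 1 whole follicle, so that fewer cells of a type and less RNA per cell cannot be told apart. Neither the animals, their age nor the culture runs are named in the labels. The 7 follicles of a group may share animals, so n counts follicles and not animals. The p-values therefore rest on follicle-to-follicle spread, part of which may be technical.

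Vitrification cools tissue fast enough, in the presence of concentrated cryoprotectants, for its water to solidify as a glass without ice crystals. A grown follicle consists of an oocyte, the granulosa cells around it (cumulus cells next to the oocyte and mural cells at the wall) and an outer layer of theca cells. hCG acts on the receptor for luteinizing hormone. Granulosa cells respond by releasing EGF-like ligands, which drive cumulus cells to build a hyaluronan matrix. In the same hours progesterone synthesis and the progesterone receptor are induced, estrogen synthesis is shut down, and the genes needed for rupture of the follicle wall are switched on.

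All 14 libraries came from 1 plate, with the fresh libraries in row A and the vitrified libraries in row D by their well labels, so plate row and vitrification cannot be told apart. Their total estimated counts ranged from 1755598 to 3116229 in fresh and from 1750683 to 2981260 in vitrified follicles. Vitrified libraries 1 and 2 stood apart as a pair. Their counts differed by a chi-square of 1.97 per degree of freedom, against at least 9.66 in the other 41 pairs within a group, and their log2 expression values correlated at r = 0.974, against at most 0.958. The difference was above counting noise alone, which, for reads without molecular identifiers, does not show that the libraries came from separate follicles. Values use them as 2 samples, and where a call is lost with the pair counted as 1 sample (7 fresh, 6 vitrified), that value stands beside it.

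Vitrified and fresh follicles differed in 17 of 6306 genes tested at 4 h (0.27%) by edgeR's quasi-likelihood test, at an adjusted p under 0.05. Of these, 8 were higher (0.127%) and 9 were lower (0.143%) in vitrified follicles. Lower genes included the lipid enzyme gene Agpat1, the pentose phosphate enzyme gene Tkt, the cold-inducible gene Rbm3 and the class I histocompatibility genes H2-K2 and H2-Q6. Higher genes included the ribosomal protein pseudogenes Rps3a3 and Rps3a2, H2-K1, the transcription factor gene Zbtb16, the adhesion gene Vcam1 and Epdr1. With the pair counted as 1 sample, 9 genes were called, all of them among the 17: Agpat1, Ypel2, Tkt, Gm47015, H2-K2, Rps3a3, Zbtb16, Epdr1 and Slc37a2. The other 8 then had adjusted p-values from 0.0638 to 0.114. DESeq2 called 51 genes and limma on log2(TPM + 1) 9, and leaving out 1 library gave from 5 (without vitrified library 2) to 24 (without vitrified library 7). Agpat1, Ypel2, Tkt, Rps3a3 and Gm47015 were called in all 14 fits that left out 1 library, and the other genes in 2 (Rps3a2 and H2-Q6) to 11 (Zbtb16) of the 14. Gm47015 was not called when all libraries of the same plate or all 83 libraries were fitted (adjusted p up to 0.655). Ypel2 was not called with all 83 libraries (0.243), nor Tkt by limma on log2(TPM + 1) (0.0855). With plate column as a block, Rbm3, H2-K2, H2-Q6 and Tmem50a were not called (adjusted p from 0.052 to 0.0994).

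Most genes had a difference near 0. At an unadjusted p under 0.05, 540 genes (8.56%) differed, with 310 higher (4.92%) and 230 lower (3.65%). The median log2 fold change of all genes tested was -0.0013, with a median standard error of 0.23. For 5135 genes (81.4%) the 95% interval lay within 2-fold in both directions. The 7 vitrified libraries did not overlap the 7 fresh ones in 12 of the genes tested (0.19%), of which 8 were among those called.

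**Figure D1:**
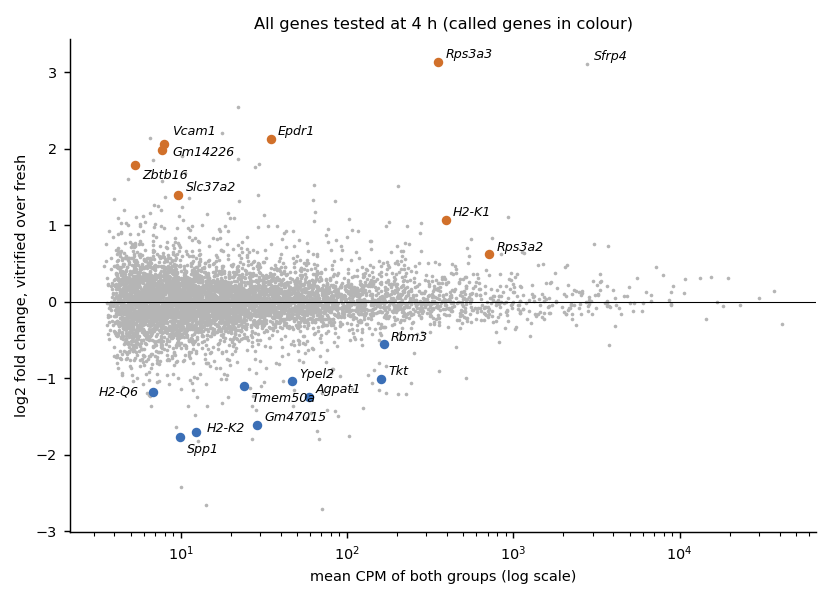
Log2 fold change, vitrified over fresh, against the mean level of both groups in CPM (each gene's count scaled to the size of its library) on a log scale, for each of the 6306 genes tested. The 17 genes called are in colour (8 higher in orange, 9 lower in blue), and Sfrp4, a large difference that was not called, is named beside its grey point.

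Among metabolic genes, Agpat1 encodes an enzyme of the endoplasmic reticulum that makes phosphatidic acid from lysophosphatidic acid. Its level in CPM, the count scaled to library size, was 60.1 at the lowest, 86.7 at the median and 102 at the highest in fresh follicles, and 27.7, 35.7 and 39.8 in vitrified follicles; this order of lowest, median and highest is kept below. Every vitrified follicle lay below every fresh one. The gene fell by 1.25 ± 0.15 (SE) on the log2 scale (adjusted p = 0.000887, or 0.00273 with the pair as 1).

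Tkt encodes transketolase, which moves carbon units between sugars in the pentose phosphate pathway. Fresh follicles held 113 CPM at the lowest, 222 at the median and 269 at the highest, and vitrified follicles 81.8, 113 and 124 CPM. Fresh library 7 was the only fresh one within the vitrified range. The log2 fold change was -1.01 ± 0.16 (adjusted p = 0.0138). Without that library, which was picked for its Tkt value, it was -1.12, given as a description. Over the 14 fits that left out 1 library, the adjusted p of Tkt was at most 0.0399. Slc37a2 encodes a sugar phosphate exchanger of the endoplasmic reticulum membrane. It moved the other way, from 2.49, 5.03 and 10.1 CPM (lowest, median and highest) in fresh follicles to 10.2, 13.4 and 19.2 CPM in vitrified ones. The groups did not overlap, but only just (10.14 against 10.22 CPM). On the scale of the 65 libraries used below, 6 of the 7 vitrified follicles lay above the highest fresh one. Its log2 fold change was 1.40 ± 0.26 (adjusted p = 0.0268), and the call held in 7 of the 14 fits that left out 1 library.

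Among genes of transcription and RNA handling, Ypel2, a member of the yippee-like family, fell in vitrified follicles. Its lowest, median and highest levels were 50.2, 66.6 and 76.3 CPM in fresh and 25.7, 28.1 and 40.1 CPM in vitrified follicles. The groups did not overlap, and the log2 fold change was -1.04 ± 0.14 (adjusted p = 0.0013). Zbtb16 encodes PLZF, a zinc finger transcription factor known as a target of progestin and glucocorticoid receptors. It rose from 1.24, 1.70 and 4.56 CPM in fresh follicles to 4.91, 9.06 and 11.3 CPM in vitrified follicles. These groups did not overlap either, and the log2 fold change was 1.79 ± 0.32 (adjusted p = 0.0209).

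Rbm3 encodes an RNA-binding protein that many cells induce on mild cooling. Fresh follicles held 183, 188 and 230 CPM and vitrified follicles 108, 140 and 154 CPM, again in the order lowest, median and highest. The groups did not overlap, although the change was the smallest in size among the 17 genes, at -0.55 ± 0.11 (adjusted p = 0.0336, or 0.0898 with the pair as 1).

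Several called genes encode secreted or surface proteins. Spp1 encodes osteopontin, a secreted phosphoprotein that binds integrins. Its levels were 6.21, 14.4 and 27.4 CPM in fresh follicles and 2.64, 3.50 and 12.3 CPM in vitrified ones. The groups overlapped through 1 vitrified follicle, and the gene fell by 1.77 ± 0.36 on the log2 scale (adjusted p = 0.042, or 0.114 with the pair as 1). Vcam1 encodes a cell adhesion molecule that binds integrins of white blood cells. It was at 1.12, 2.71 and 7.36 CPM in fresh and 5.49, 10.5 and 24.9 CPM in vitrified follicles, with overlap. The log2 fold change was 2.06 ± 0.41 (adjusted p = 0.0351, or 0.0849 with the pair as 1). Tmem50a, a gene for a transmembrane protein, went from 20.7, 32 and 51.4 CPM to 10.2, 13.6 and 23.3 CPM, with overlap and a log2 fold change of -1.10 ± 0.22 (adjusted p = 0.042, or 0.103 with the pair as 1).

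Both remaining called genes carry only predicted-gene names. Gm47015, annotated as a long intergenic non-coding RNA on chromosome 10, fell from 25.3, 40.1 and 69.6 CPM to 7.62, 11.8 and 24.5 CPM. The groups did not overlap, and the log2 fold change was -1.61 ± 0.27 (adjusted p = 0.0149). Gm14226 rose from 2.07, 2.71 and 6.15 CPM to 2.44, 11.3 and 24 CPM, with overlap and a log2 fold change of 1.98 ± 0.41 (adjusted p = 0.049, or 0.103 with the pair as 1).

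**Figure D2:**
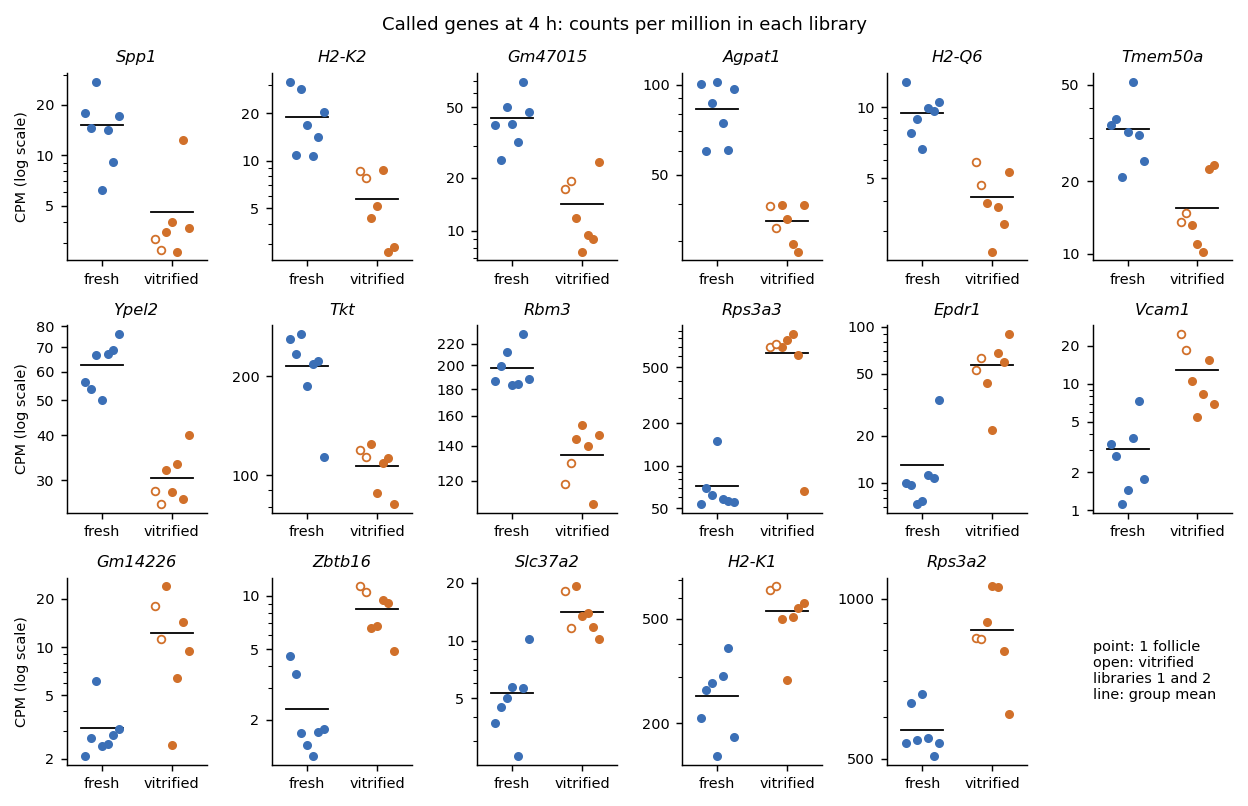
Level of each of the 17 called genes in CPM (log scale) in the 7 fresh (blue) and 7 vitrified (orange) libraries at 4 h; each point is 1 follicle, open points are vitrified libraries 1 and 2, and the line is the group mean. In Rps3a3, 6 vitrified follicles lie far above all fresh ones, and vitrified library 7 lies among them at 65.8 CPM.

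The largest change among the called genes was that of Rps3a3, and it concerned copies of 1 ribosomal protein gene. Rps3a1 encodes a protein of the small ribosomal subunit. Rps3a2 and Rps3a3 are annotated as processed pseudogenes, copies of the spliced transcript inserted elsewhere in the genome. On GRCm38, Rps3a1 lies at chr3:86137940-86142702 (minus strand), Rps3a2 at chr14:88123017-88123808 (minus strand) and Rps3a3 at chr13:108670603-108671397 (plus strand). Over 792 bases of coding sequence, Rps3a1 and Rps3a2 differ at 4 bases and Rps3a3 differs from each of them at 9. The following 120 bases, coding bases 565 to 684 taken from the GENCODE vM21 transcripts, hold 4 of the 11 variable positions, shown in capitals. They are printed because, within the coding sequence compared, reads of the 3 genes can be told apart only over such positions. Sequence outside it was not compared.
Rps3a1: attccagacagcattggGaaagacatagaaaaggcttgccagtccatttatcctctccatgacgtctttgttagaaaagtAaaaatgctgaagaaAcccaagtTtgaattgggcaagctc
Rps3a2: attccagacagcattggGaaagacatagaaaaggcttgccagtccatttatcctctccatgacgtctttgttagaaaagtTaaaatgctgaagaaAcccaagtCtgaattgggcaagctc
Rps3a3: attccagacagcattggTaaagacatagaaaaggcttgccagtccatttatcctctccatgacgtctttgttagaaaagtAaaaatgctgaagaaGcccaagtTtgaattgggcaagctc

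Within this window each pseudogene differs from Rps3a1 at 2 bases, and the longest run without a difference between Rps3a1 and Rps3a2 over the whole coding sequence was 317 bases. The sources used here do not say how reads matching several copies were assigned, so the split of counts between the copies is uncertain.

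Rps3a3 was at 53.5 CPM at the lowest, 58.5 at the median and 151 at the highest in fresh follicles, and at 65.8, 700 and 860 CPM in vitrified follicles. Of the vitrified follicles, 6 lay between 614 and 860 CPM, above every fresh one, and vitrified library 7 lay within the fresh range. The log2 fold change was 3.14 ± 0.45 (adjusted p = 0.0138). Without vitrified library 7, which was picked for its Rps3a3 value, it was 3.34, given as a description. Over the 14 fits that left out 1 library, the adjusted p of Rps3a3 was at most 0.0415. Rps3a2 went from 505, 543 and 661 CPM to 606, 845 and 1056 CPM, with overlap and a log2 fold change of 0.62 ± 0.12 (adjusted p = 0.0351, or 0.0849 with the pair as 1). Vitrified library 7 was again the lowest vitrified one. The parent gene Rps3a1 was at 874, 986 and 1095 CPM in fresh and at 541, 725 and 1143 CPM in vitrified follicles, with vitrified library 7 the highest, and was not called (log2 fold change -0.34 ± 0.14, adjusted p = 0.487). With the counts of the 3 genes summed, fresh follicles held 1634 ± 124 CPM and vitrified follicles 2293 ± 353 CPM (mean ± SD, n = 7 each), and the difference did not pass (log2 fold change 0.49 ± 0.11, adjusted p = 0.0887, or 0.179 with the pair as 1).

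A second group of related genes was that of the class I major histocompatibility complex, whose heavy chains present peptides at the cell surface. H2-K1 rose from 150, 268 and 385 CPM in fresh follicles to 291, 549 and 665 CPM in vitrified ones. Its log2 fold change was 1.07 ± 0.20 (adjusted p = 0.0346, or 0.089 with the pair as 1), and the groups overlapped. H2-K2, annotated as a transcribed unprocessed pseudogene beside it, fell from 10.8, 16.7 and 31.5 CPM to 2.66, 5.18 and 8.69 CPM, with no overlap (log2 fold change -1.70 ± 0.32, adjusted p = 0.0268). The H2-K2 call was lost without fresh library 1 or 3 or vitrified library 2, 3 or 6 (adjusted p up to 0.0838) and with plate column as a block (0.0666). H2-Q6 also fell without overlap, from 6.69, 9.62 and 12.9 CPM to 2.44, 3.93 and 5.88 CPM (log2 fold change -1.18 ± 0.24, adjusted p = 0.0385, or 0.0638 with the pair as 1).

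H2-K1 and H2-K2 share 85.7% of 973 bases compared, with no identical run above 64 bases, so they are less alike than the Rps3a copies. Their summed count was 273 ± 78.8 CPM in fresh and 539 ± 124 CPM in vitrified follicles (mean ± SD, n = 7 each; log2 fold change 0.98 ± 0.19, adjusted p = 0.0392, or 0.104 with the pair as 1). Over 18 class I genes together the sum went from 974 ± 489 to 1624 ± 355 CPM and did not pass (log2 fold change 0.74 ± 0.31, adjusted p = 0.517). H2-D1, another classical class I gene, varied widely among fresh follicles, from 86.9 CPM through a median of 654 to 1060 CPM. In vitrified follicles it lay between 614 and 1193 CPM with a median of 956 CPM, and it was not called (adjusted p = 0.702).

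Agpat1 lies in the same part of the genome as these genes. From H2-K2 at chr17:33974659-33978827 and H2-K1 at chr17:33996017-34000347, past Agpat1 at chr17:34604262-34613449, to H2-Q6 at chr17:35424850-35430055, the stretch spans 1.46 Mb. It holds 27 of the genes tested, and 4 of them (14.8%) were called, against 0.27% of all genes tested. The stretch was bounded by called genes after their values were seen, so the share is a description with no test. CD-1 mice are outbred, and neither genotypes nor animals are named in the labels.

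Epdr1, which encodes an ependymin-related secreted glycoprotein, was at 7.27, 9.96 and 34 CPM in fresh and at 21.6, 59.1 and 89.9 CPM in vitrified follicles. The overlap came from fresh library 7, the highest fresh one, and from vitrified library 4, the lowest vitrified one. The log2 fold change was 2.13 ± 0.36 (adjusted p = 0.0232). Without fresh library 7, which was picked for its Epdr1 value, it was 2.58, given as a description. The Epdr1 call was lost without fresh library 1, 2, 3 or 5 or vitrified library 1 or 2 (adjusted p up to 0.0838). Its neighbour Sfrp4 lies at chr13:19623104-19632994 on the opposite strand, head to head with Epdr1 and 3176 bases from it. Sfrp4 encodes a secreted antagonist of WNT signalling that granulosa cells make after the luteinizing hormone surge. The library kit does not mark strand, so reads of overlapping transcripts from the opposite strand would not be told apart.

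In fresh follicles 1 to 6 Sfrp4 lay between 65.2 and 191 CPM, and in fresh library 7 at 3435 CPM. Vitrified follicles lay between 2202 and 7193 CPM with a median of 5170 CPM. All vitrified follicles but 1 were thus above the highest fresh one, and all of them were above the other 6. The log2 fold change was 3.11 ± 1.01 and was not called (adjusted p = 0.368). Without fresh library 7, which was picked for its Sfrp4 value, it was 5.63. That choice favours a small p-value, so none is given. By limma-voom on all 14 libraries the log2 fold change was 4.90 (adjusted p = 0.0204). By edgeR on the 65 libraries used below it was 3.12 and not called at 4 h (adjusted p = 0.146). Over all alternatives run, Sfrp4 and a second gene, Tnfaip6, together gained a call 4 times. Fresh library 7 was also the highest fresh library in Slc37a2 and the lowest in Tkt. It lay away from the vitrified group in others, at 178 CPM in H2-K1 and 55.1 CPM in Rps3a3, near the lowest fresh values. In every gene 1 of the 7 fresh libraries must lie nearest to the vitrified group, so these genes show no trait of the library. The label of fresh library 7 places it in the fresh group, and it stays there in every value not given as without it.

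The landmark genes of the ovulatory response, a list of 26 genes, give the state of the programme at 4 h. Of these, 21 passed the filter on low counts and none was called, against 0.27% of all genes tested. At that share a list of this size would mostly hold no called gene. Only Sfrp4 had an unadjusted p under 0.05, against 8.56% of all genes tested. The 95% interval lay within 2-fold for 15 of the 21, against 81.4% of all genes tested. The median log2 fold change was 0.07. Fshr, Cebpb, Edn2, Il6 and Nppc did not pass the filter. Fshr, the FSH receptor gene, was at 0, 0.566 and 1.66 CPM (lowest, median and highest) in fresh and 0.453, 1.23 and 7.99 CPM in vitrified follicles. At these low counts its difference was not tested.

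The 3 EGF-like ligand genes did not pass the test. Areg (amphiregulin) was at 691 ± 257 CPM in fresh and 587 ± 235 CPM in vitrified follicles (mean ± SD, n = 7 each), a log2 fold change of -0.24 with an SE of 0.29. Ereg (epiregulin) was at 3006 ± 1186 and 3600 ± 1282 CPM, and Btc (betacellulin) at 2813 ± 565 and 2929 ± 673 CPM. Their receptor gene Egfr had the smallest unadjusted p of its list (0.00241), with 22.3 ± 7.0 CPM in fresh and 44.3 ± 19.2 CPM in vitrified follicles, and did not pass adjustment (log2 fold change 0.99 ± 0.28, adjusted p = 0.218).

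Among genes of cumulus expansion, Ptgs2, the prostaglandin synthase gene, was at 2194 ± 843 CPM in fresh and 1957 ± 783 CPM in vitrified follicles. Has2, which encodes hyaluronan synthase, was at 8.96 ± 4.50 and 7.20 ± 3.77 CPM. The hyaluronan-binding genes varied more between follicles. Tnfaip6 was at 2283 ± 978 and 3845 ± 2165 CPM (log2 fold change 0.75 ± 0.40), and Ptx3 at 106 ± 93.3 and 58.0 ± 45.1 CPM (log2 fold change -0.87 ± 0.68). For both, the interval reached past 2-fold, so a 2-fold difference was not excluded. Vcan, the versican gene, was at 17529 ± 4383 and 21733 ± 3658 CPM.

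Pgr, the progesterone receptor gene, was at 6697 ± 1763 CPM in fresh and 6719 ± 944 CPM in vitrified follicles, and the 95% interval of its log2 fold change ran from -0.32 to 0.33. Star, which carries cholesterol into mitochondria for steroid synthesis, was at 8902 ± 4222 and 8733 ± 2121 CPM, and Cyp11a1, which cuts the cholesterol side chain, at 4598 ± 2948 and 5261 ± 1115 CPM. Cyp19a1, the aromatase gene of estrogen synthesis, was at 9.0 ± 4.70 and 10.0 ± 3.03 CPM. Lhcgr, the receptor gene for hCG, had a wide spread, with 43.0, 62.3 and 219 CPM in fresh and 34.1, 153 and 520 CPM in vitrified follicles (lowest, median and highest). Its log2 fold change was 1.05 ± 0.60 (adjusted p = 0.669), with a 95% interval from -0.25 to 2.35.

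**Figure D3:**
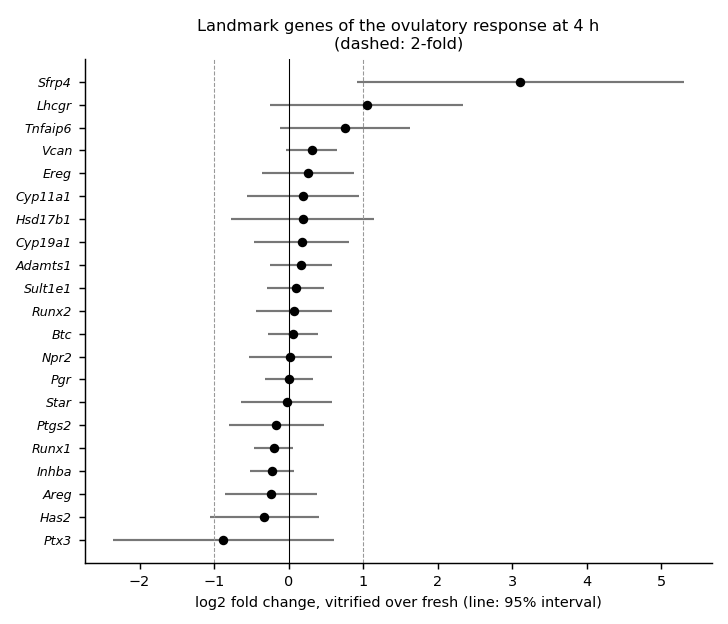
Log2 fold change, vitrified over fresh, of the 21 landmark genes tested at 4 h; points are estimates, lines are 95% intervals and dashed lines mark 2-fold. The intervals of 15 genes lie between the dashed lines, and Sfrp4 stands apart at 3.11.

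Gene lists for pathways of follicle biology and cell stress were described by counts and medians. Over all lists, the called members were Zbtb16 (ovulatory transcription factors and effectors, 1 of 12 tested), Rbm3 (cold shock RNA-binding proteins, 1 of 7) and H2-K1 (interferon response and class I, 1 of 4). Of all genes tested 0.27% were called. A single called member is not a result about its list. Heat shock and chaperone genes had 12 members tested and a median log2 fold change of 0.03. The endoplasmic reticulum stress list (17 tested) had a median of 0.06 and the oxidative phosphorylation list (23 tested) one of 0.09. The median over all genes tested was -0.0013, with 49.8% above 0.

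Some lists leaned one way without a called member. Of 20 extracellular matrix and basement membrane genes tested, 19 had a log2 fold change below 0, with a median of -0.98. Fn1, the fibronectin gene, was at 51.0, 125 and 487 CPM in fresh and 22.6, 66.1 and 153 CPM in vitrified follicles, a log2 fold change of -1.38 ± 0.53 (adjusted p = 0.487). The summed level of the matrix list was 5713 CPM in fresh library 1 and 8512 CPM in fresh library 4, and between 1512 and 3593 CPM in the other 5 fresh libraries. Vitrified libraries lay between 1575 and 4416 CPM, and only those 2 fresh libraries lay above every vitrified one.

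The same 2 fresh libraries had the highest sums of the immune and the endothelial marker lists. Immune markers summed to 53.5 CPM in fresh library 4 and 36.5 CPM in fresh library 1, in a range from 0.601 to 53.5 CPM in fresh and from 0.905 to 23.2 CPM in vitrified follicles. Of the 12 immune markers listed, 11 averaged under 1 CPM. Endothelial markers summed to 102 and 72.2 CPM in those libraries, in a range from 6.71 to 102 CPM in fresh and from 0.453 to 28.3 CPM in vitrified follicles, and 4 of the 11 averaged under 1 CPM. The part of such cells in the matrix values was not tested.

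Cholesterol synthesis and uptake genes had a median log2 fold change of 0.31, with 18 of 20 tested above 0 and none called. Of 24 cytosolic ribosomal protein genes, 20 were below 0, but the median was small at -0.09. Rps2 was the exception in size, with 105 ± 11 CPM in fresh and 301 ± 181 CPM in vitrified follicles (log2 fold change 1.52 ± 0.37, adjusted p = 0.165). Splicing factor genes lay below 0 in 17 of 21, with a median of -0.12.

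Stress and cell cycle arrest genes had few members near the threshold. Cdkn1a, which encodes the p53-induced cell cycle inhibitor p21, was at 684, 846 and 1139 CPM in fresh and 945, 1178 and 1896 CPM in vitrified follicles, with overlap. Its log2 fold change was 0.65 ± 0.16 (adjusted p = 0.129), and the median of its list was -0.05. Gpx3, the secreted glutathione peroxidase gene, was at 238 ± 75.0 CPM in fresh and 104 ± 33.2 CPM in vitrified follicles (log2 fold change -1.20 ± 0.27, adjusted p = 0.1). Serpina3a, a serine protease inhibitor gene, had the most negative log2 fold change of all genes tested, -2.71 ± 0.54, with 123 ± 89.8 CPM in fresh and 18.9 ± 11 CPM in vitrified follicles (adjusted p = 0.0785). Egfr, Fn1, Rps2, Gpx3 and Serpina3a were chosen for mention after their values were seen.

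**Figure D4:**
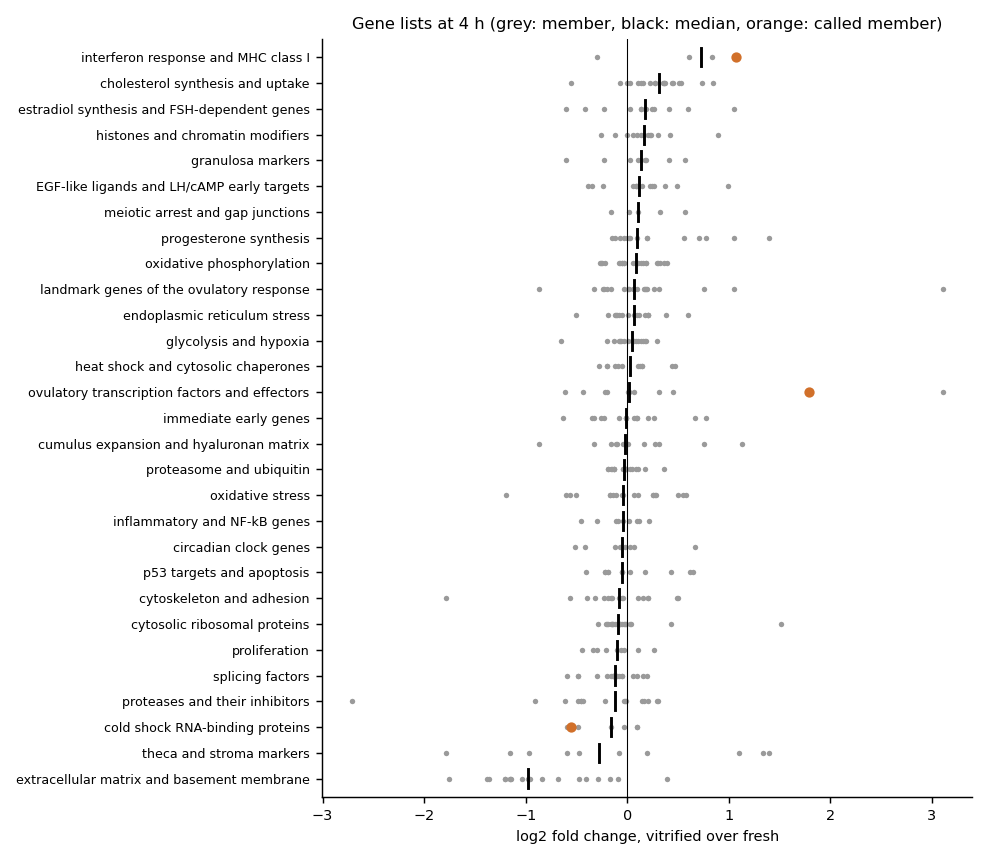
Log2 fold change, vitrified over fresh, of the tested members of each gene list with at least 3 of them; grey points are members, orange points are called members and black bars are list medians. The median of the matrix list is -0.98 and most other medians lie near 0, while called members are H2-K1, Zbtb16 and Rbm3.

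Markers of granulosa cells had a high sum in every library. Granulosa markers summed to 61136 ± 7615 CPM in fresh and 63119 ± 6553 CPM in vitrified follicles (mean ± SD, n = 7 each), with 1 of the 13 (Amh) under 1 CPM. Inha, Inhba and Gja1 made most of it, with means of 35021, 15592 and 10274 CPM in fresh and 38431, 13329 and 11088 CPM in vitrified follicles. Foxl2 (means of 0.82 and 1.49 CPM) and Fshr (0.65 and 2.26 CPM) were near the floor. Of the 9 granulosa markers tested singly, 7 had a log2 fold change above 0 and 2 below, and none was called. Oocyte markers were low in both groups, at sums of 11.7 to 130 CPM in fresh and 19 to 42.6 CPM in vitrified follicles. Of 22 listed oocyte markers, 12 averaged under 1 CPM and Ddx4 was at 0 in all 14 libraries. Theca and stroma markers summed to between 2538 and 9035 CPM in fresh and between 4157 and 7652 CPM in vitrified follicles. Most of that sum was Cyp11a1, with means of 4598 CPM in fresh and 5261 CPM in vitrified follicles, against mean sums of 5017 and 5585 CPM. Of the 10 theca and stroma markers tested singly, 4 had a log2 fold change above 0 and 6 below. These ran from -1.79 to 1.39, and none was called, so the sum does not show how the members moved. In exact permutation tests over 3432 assignments of the libraries, none of 10 measures of library makeup passed, with adjusted p-values of at least 0.577. The measures were total count, genes with a count, the share of the 50 most abundant genes and 7 marker sums.

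Group, in which vitrification and plate row cannot be told apart, accounted for 12.3% of the variance between the 14 libraries over all genes tested. The mean over all assignments of the libraries to 2 groups of 7 was 7.69% (exact permutation test of the between-group share of squared Euclidean distances, p = 0.00641). With the pair as 1 the share was 11.5%, against a mean of 8.33% (exact p = 0.0111). A difference in spread among follicles of a group was not detected. The Euclidean distance of a library to the mean of the others of its group, in log2 CPM over all genes tested, was 43.1 ± 3.20 in fresh and 43.0 ± 2.88 in vitrified follicles (mean ± SD, n = 7 each, exact permutation p = 0.987, two-sided). With the pair as 1 these distances were 45.2 and 44.5 (exact permutation p = 0.706). Correlations between libraries ran from 0.925 to 0.958 within fresh, from 0.932 to 0.974 within vitrified and from 0.903 to 0.954 between the groups, as a description.

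The genes called at 4 h were then followed through the other times, in 65 libraries scaled together (fresh 18, 6, 7 and 4 and vitrified 15, 5, 7 and 3 at 0, 1, 4 and 8 h). CPM on this scale are not those of the 14 libraries alone. All 0 h libraries were on a plate of their own, and each vitrified minus fresh difference lay within 1 plate. The groups of the 4 times share no library. In this fit 111, 61, 14 and 221 of 11576 genes differed between vitrified and fresh follicles at 0, 1, 4 and 8 h. Of the 17 genes called in the 14 libraries alone, Agpat1, Ypel2, Tkt, Rps3a3, Zbtb16 and Epdr1 passed at 4 h in this fit. The others did not, with adjusted p-values from 0.095 (H2-K2) to 0.547 (Gm47015). The 14 genes that differed at 4 h thus include some that were not among the 17. With the pair as 1, 11 genes were called at 4 h in this fit.

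Rps3a3 was higher in vitrified follicles at each of the 4 times, with log2 differences of 2.89, 2.73, 3.18 and 2.95 at 0, 1, 4 and 8 h (adjusted p = 1.15e-08, 0.00465, 0.000274 and 0.00839). At 0 h it was at 76.8 ± 33.8 CPM in fresh (SD, n = 18) and 570 ± 228 CPM in vitrified follicles (SD, n = 15). Vitrified follicles above the highest fresh one numbered 13 of 15, 4 of 5, 6 of 7 and 2 of 3 at the successive times, so each time had at least 1 vitrified follicle no higher than the highest fresh one. Rps3a1 had the opposite sign at each time and passed at 0 h (log2 difference -0.60, adjusted p = 0.00777).

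H2-K2 had log2 differences of -1.99, -1.78, -1.67 and -2.80 at the 4 times (adjusted p = 1.26e-06, 0.06, 0.095 and 0.00621). Vitrified follicles below the lowest fresh one numbered 14 of 15, 5 of 5, 7 of 7 and 3 of 3. The differences of H2-K1 were 0.85, 1.75, 1.10 and 1.25 (adjusted p = 0.0067, 0.00213, 0.14 and 0.105). Those of Agpat1 were -0.87 at 0 h (adjusted p = 3.3e-05), -0.63 at 1 h (0.269), -1.22 at 4 h (0.000599) and -0.42 at 8 h (0.663). Sfrp4 was higher at 0 h by 3.23 ± 0.60 (adjusted p = 0.000839), when its level was 5.86 ± 10.1 CPM in fresh (SD, n = 18) and 51.7 ± 48.1 CPM in vitrified follicles (SD, n = 15), and its differences at 1, 4 and 8 h were 3.62, 3.12 and 3.75 without passing.

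Tkt, Epdr1, Ypel2 and Zbtb16 passed in this fit at 4 h and at no other time, although Ypel2 and Zbtb16 did not pass with the pair as 1 (adjusted p = 0.0769 and 0.0596). Tkt differed by -0.0029, -0.22, -0.98 and -0.21 at 0, 1, 4 and 8 h, with an adjusted p of 0.000599 at 4 h. On this scale fresh follicles held 340 ± 41.5 CPM at 1 h, 259 ± 65.7 CPM at 4 h and 153 ± 27.7 CPM at 8 h (mean ± SD), and vitrified ones 291 ± 52.7, 131 ± 20.4 and 132 ± 39.5 CPM. The difference at 4 h minus that at 0 h was itself tested, at -0.98 ± 0.20 (adjusted p = 0.0451), and no gene passed this test with the pair as 1. Epdr1 differed by 0.58, 1.29, 2.15 and 1.42 (adjusted p = 0.000274 at 4 h), Ypel2 by -0.29, 0.19, -1.01 and -0.37 (0.0208 at 4 h) and Zbtb16 by 1.10, 0.23, 1.82 and 0.53 (0.0245 at 4 h). For Epdr1, Ypel2 and Zbtb16 the difference at 4 h was not shown to differ from that at any other time (adjusted p of at least 0.242). Rbm3 differed by -0.18, -0.07, -0.53 and -1.01 and passed at 8 h (adjusted p = 0.0126).

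**Figure D5:**
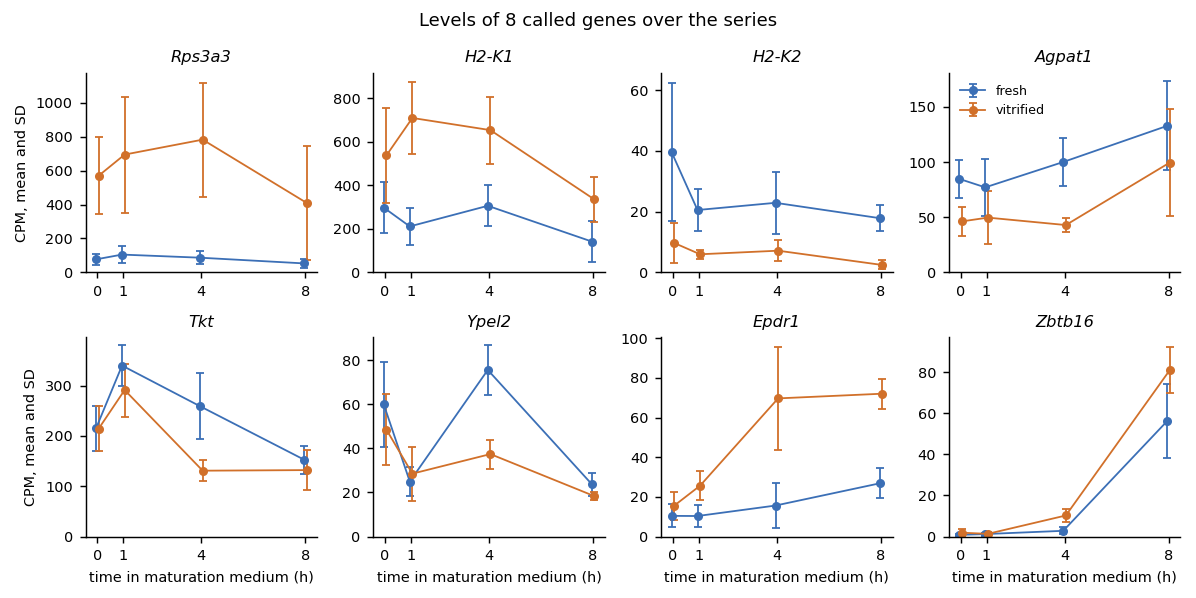
Mean CPM of 8 called genes in fresh (blue) and vitrified (orange) follicles at 0, 1, 4 and 8 h in the 65 libraries scaled together; bars are SD over follicles, and the 0 h libraries were on a plate of their own. The means of Rps3a3, H2-K1 and H2-K2 are apart at every time, whereas the means of Tkt and Ypel2 lie furthest apart at 4 h.

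Across all genes, the vitrification difference at 4 h differed from that at 0 h in 2 of 11576 genes (0.0173%), from that at 1 h in 4 (0.0346%) and from that at 8 h in 96 (0.829%). In 95 of these 96 genes the difference was more positive at 4 h than at 8 h. At 8 h only 3 vitrified and 4 fresh follicles of this plate entered. With the pair as 1 the counts were 0, 4 and 72. When only the 4 groups of each contrast were fitted, no gene differed from 1 h and 162 from 8 h, whereas all 83 libraries gave 7 at 8 h.

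Many called genes also changed between 1 h and 8 h in fresh follicles, as did a large share of all genes tested. Of 8653 genes tested between 1 h and 8 h in fresh follicles, 2674 were higher (30.9%) and 2480 lower (28.7%) at 8 h. Of the 17 called genes 6 were among the former and 8 among the latter. The largest of these changes are named here. Spp1 rose by 11.3 and Zbtb16 by 5.56 on the log2 scale, while Gm14226 fell by 8.00, Gm47015 by 3.32 and Vcam1 by 3.94. On that course Spp1, which rises, was lower in vitrified follicles at 4 h and Zbtb16, which also rises, was higher. Vcam1 and Gm14226, which fall, were higher, and Gm47015, which falls, was lower.

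Over the whole time course, medians at 4 h lay near 0. Of the genes higher at 8 h than at 1 h, 1977 were tested at 4 h, with a median log2 fold change of 0.03, 54.5% above 0, and 3 higher and 3 lower in vitrified follicles. Of the genes lower at 8 h, 1799 were tested, with a median of -0.01, 47.6% above 0, and 4 higher and 4 lower. The same over all genes tested was a median of -0.0013 and 49.8% above 0. At an unadjusted p under 0.05, 138 of the rising genes were higher and 61 lower in vitrified follicles, against 82 and 77 of the falling genes and 310 and 230 of all genes tested. Scaled by total counts instead, these were 117 and 130 for the rising genes and 215 and 289 for all. The libraries that set the time course and those of the 4 h comparison do not overlap.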

How the data were processed

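Per the labels' protocols, cDNA of each follicle was made by Smart-Seq2 (full length, no molecular identifiers) and libraries by Nextera XT, which keeps no strand. The authors deposited estimated counts per gene, not whole numbers in the table, and log2(TPM + 1) values for the same 83 libraries and 21572 rows. The submitters' processing notes name Partek, Bowtie2, HISAT2, DESeq2 and mm10 without roles, and how reads matching several genes were treated is not stated. No columns of other series were present (0).

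Rounded counts entered edgeR's quasi-likelihood test (edgeR 4.0.16, R 4.3.3; robust fit, TMM scaling, filterByExpr with a minimum count of 10) on the 14 libraries at 4 h alone, with Benjamini-Hochberg adjustment over all 6306 genes tested. Standard errors come from the fold change and its F statistic, and intervals are 95% intervals. CPM are counts scaled to the TMM library size. Intervals and counts without molecular identifiers cover no error of amplification. Differences across times used 65 libraries, leaving out a plate of vitrified libraries only. Single values per library were tested by exact permutation, two-sided.

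Genes named were all called genes (17), the landmark list, up to 4 called members of each list or its 2 most abundant members, and up to 10 genes per test of a difference between times; others are said to be chosen after their values were seen or belong to a fixed list. The members and lists were chosen with earlier results of these data known. Positions and transcript sequences came from GENCODE vM21 on GRCm38, in which 6233 of 6306 symbols matched; 21 rows with date-like symbols were kept and not named. The fit was tested on simulated data. Alternatives were other scalings, filters, tools (DESeq2 1.42.0, limma 3.58.1), sets of libraries and each library left out; added after seeing the data were the vitrified pair as 1 sample and summed copies. A pair of list members is left unreported.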

Additional observations from a re-analysis of the deposited data

Results flagged for a closer look

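Within the groups of 7 libraries, 95 checks of 38 genes and the makeup measures found 11 in which 1 library lay far from the others, where chance gives about 1 in 20. The highest fresh library was far from the rest for Rps3a3 (151 CPM), Epdr1 (34 CPM), Slc37a2 (10.1 CPM), Vcam1 (7.36 CPM), Gm14226 (6.15 CPM), Sfrp4 (3435 CPM) and the summed oocyte markers (130 CPM). Fresh library 7 was that library for Epdr1, Slc37a2 and Sfrp4. The lowest fresh library was far from the rest for Inhba (10012 CPM). Among vitrified libraries, Rps3a3 had a low one (65.8 CPM), and Spp1 (12.3 CPM) and the summed erythroid markers (0.390 CPM) had a high one.

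The vitrified minus fresh difference at 4 h was tested against that at another time. Against 0 h it differed in Tkt, by -0.98, and in Mgme1, a mitochondrial nuclease gene, by 2.37 on the log2 scale. Against 1 h it differed in Sos2 by -7.72, Hnrnpu by -3.63, Eif3b by -3.76 and Nfkbia by 1.58. For Nfkbia, the gene of an inhibitor of NF-kB, the difference was -1.46 ± 0.25 at 1 h and 0.12 ± 0.20 at 4 h. For Sos2 it was 4.39 ± 1.02 at 1 h and -3.33 ± 0.89 at 4 h. Single libraries stood far above the median in these groups. Sos2 had a median of 9.53 CPM and a highest value of 590 CPM in vitrified follicles at 1 h, and of 4.58 and 313 CPM in fresh follicles at 4 h. In vitrified follicles at 1 h Hnrnpu had a median of 56.2 and a highest value of 1279 CPM, and Eif3b 7.08 and 156 CPM. With only the 4 groups of that contrast, no gene differed from 1 h by edgeR.

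Against 8 h the 10 genes with the smallest adjusted p by edgeR were all more positive at 4 h. They were Tpbg (4.54), Tspan5 (4.42), Ahctf1 (3.70), Khdrbs1 (3.64), Ctnnb1 (2.61), BC005537 (2.17), Appbp2 (2.12), Vapb (2.08), Kansl2 (2.0) and Zfand6 (1.61), as differences of log2 differences. For Tpbg the difference was 0.44 ± 0.37 at 4 h and -4.10 ± 0.68 at 8 h. For Tspan5 it was 0.68 ± 0.46 at 4 h and -3.74 ± 0.76 at 8 h.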

How the results depend on the processing

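Agpat1 and Rps3a3 were called under all alternatives run. The count of 17 genes called (8 higher, 9 lower) became 102 (58 and 44) without the low-count filter, 10 (4 higher) at 10 CPM or more in 7 libraries, 51 (27 and 24) with DESeq2, 9 (4 and 5) with limma on log2(TPM + 1), 45 (29 and 16) with plate column as a block and 9 (4 and 5) with the vitrified pair as 1. All libraries of the shared plate gave 5 higher, and all 83 libraries 5 lower. Leaving out 1 library gave 5 to 24 called, 1 to 11 higher and 4 to 13 lower: 6, 7, 10 and 7 without fresh library 1, 2, 3 or 5, and 6, 5, 7 and 10 without vitrified library 1, 2, 3 or 6. Of 1055 values of 38 genes under alternatives, 892 kept their side of the threshold, 159 lost it, 4 (Sfrp4 and Tnfaip6) gained it and none reversed. Leaving out 1 library, with no call, the vitrified minus fresh difference ranged from -18.96 to 0.824 CPM for the oocyte marker sum and from -475 to 3809 CPM for the granulosa marker sum (turning sign without fresh library 4), from -67.9 to 210.6 for genes with a count (without vitrified library 4) and from -0.00096 to 0.976 percentage points for the share of the 50 most abundant genes (without vitrified library 7). The spread between follicles turned sign with the 500 most variable genes (0.379). Against 1 h, 0 genes differed with only the 4 groups of that contrast. Against 8 h the number was 162 with only the 4 groups and 7 with all 83 libraries, and against 0 h it was 0 with the pair as 1. Scaling by total counts moved the median of the genes that rise with time to -0.0316, beside -0.0465 for all genes tested. Except where fewer libraries or genes entered, the cause was not tested. No paired analysis was possible because the labels give wells and no replicate numbers; the plate column block above uses well position and pairs no follicles by origin. At these depths and 7 follicles a group, the median standard error was 0.23 on the log2 scale.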
